A study of Mus musculus with 12 samples.

Results

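The cell cycle and DNA replication genes of the mouse small intestine were followed over 4 states of feeding. They were taken by name: cyclins A to L, cyclin-dependent kinases (CDKs) and their inhibitors, Cdc genes other than the Cdc42 family, E2f, Rb and Polo-like kinase genes, and genes of the replication machinery, with Pcna, Skp2, Tfdp1, Mad2l1, Top2a and Mki67 added. The rule found 104 probes of 76 gene names among the 20280 probes tested on each array. By patterns on their names, 32 probes (25 genes) were listed under DNA replication, 19 (14 genes) under the G1/S transition, 23 (16 genes) under mitosis, 7 (6 genes) under the CDK inhibitors, and 23 (15 genes) under other cyclins, CDKs and Cdc genes. The replication list takes in Mcm3ap, a gene of another protein, and misses the MCM helicase genes, filed under other names.

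All mice were male FVB mice 6 weeks old. They were either fed or deprived of chow for 12, 24 or 72 h, in metabolic cages and, from 24 h on, under an infrared lamp. Each state was measured on 3 two-colour arrays, and the Cy3 channel of each array held intestinal RNA pooled from 2 mice. By the protocol, every Cy5 channel held one common reference from 6 fed mice, although the label of the fed pool 3 array names only the mice of that pool for it. All values below are log2 ratios of a pool over the fed reference, and differences between states are differences of these ratios (n = 3 pools). The whole gut wall was extracted, so fewer cells of a type and less RNA per cell cannot be told apart.

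In the intestine, stem cells and transit-amplifying cells of the crypts divide, while the enterocytes of the villi have left the cell cycle. D-type cyclins with CDK4 or CDK6, followed by cyclin E with CDK2, release E2F factors from the Rb family and so open the way into S phase. Cyclins A and B with CDK1 then drive mitosis, and CDK inhibitors such as p21 hold these kinases back.

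The arrays fell into 2 groups by file format and signal range, and the groups bear on the comparisons. Fed and 72 h arrays shared one format, with median Cy5 intensities between 120 and 137, whereas 12 h and 24 h arrays shared another, with medians between 384 and 622. The reference channel itself, by the protocol the same RNA on each array, differed between 12 h and fed arrays at 4448 probes and between 24 h and fed arrays at 4140 (limma, adjusted p under 0.05), but between 72 h and fed arrays at 0 (870 at an unadjusted p under 0.05). The comparisons of 72 h with fed and of 24 h with 12 h were thus made within a format. Even within its format, the reference differed between 24 h and 12 h arrays at 2910 probes. For 12 h or 24 h against fed, fasting and format cannot be told apart. By the scanner's flags, 64 members had a Cy3 signal well above background on all 12 arrays, 101 had one throughout at least 1 state, 14 had none in any fed array, and 0 were saturated.

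At 72 h, 18 members of 18 genes were downregulated and 1, the CDK inhibitor Cdkn1a, was upregulated (limma, adjusted p under 0.05 over all probes). These were 18.3% of the members against 10.6% of all probes. Lower calls alone were 17.3% of members against 5.8% of all probes, and 4.8% of all probes were called higher. Of the 18, 6 belonged to the G1/S list, 4 to the mitotic list, 3 to the replication list, 1 to the CDK inhibitors and 4 to the other cyclins. The median log2 difference over all members was -0.19, while that over all probes was 0.01. By list, the medians at 72 h were -0.26 for mitosis, -0.2 for G1/S and -0.14 for replication. In 43 of 104 members (41.3%) all 72 h pools lay below all fed pools, against 20.2% of all probes, and in 10 members (9.62%) all lay above, against 20.9% of all probes. The count of 19 was 12 without 72 h pool 1.

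At 12 h, 14 members were lower than in fed gut and 2 were higher, together 15.4% of the members against 10.9% of all probes. At 24 h, 9 were lower and 4 were higher, 12.5% against 10.1%. Lower calls alone took 13.5% of members at 12 h, against 6.02% of all probes, and 8.65% at 24 h, against 6.26%. Higher calls over all probes were 4.9% at 12 h and 3.79% at 24 h. The medians were -0.14 at 12 h and 0.02 at 24 h, beside -0.02 and 0.02 for all probes. All fasted pools lay below all fed pools in 25 of 97 members with every value at 12 h (25.8%, against 15.3% of all probes) and in 25 of 103 at 24 h (24.3%, against 19.8%). The counts moved with single libraries. At 12 h, 16 calls became 5 without fed pool 1, 3 without fed pool 3, 34 without 12 h pool 1, 8 without 12 h pool 2 and 10 without 12 h pool 3. At 24 h, 13 calls became 2, 6 and 4 without fed pools 1, 2 and 3, 3 and 5 without 24 h pools 1 and 2, and 20 without 12 h pool 3. The 3 comparisons with fed share the same fed pools.

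**Figure D1:**
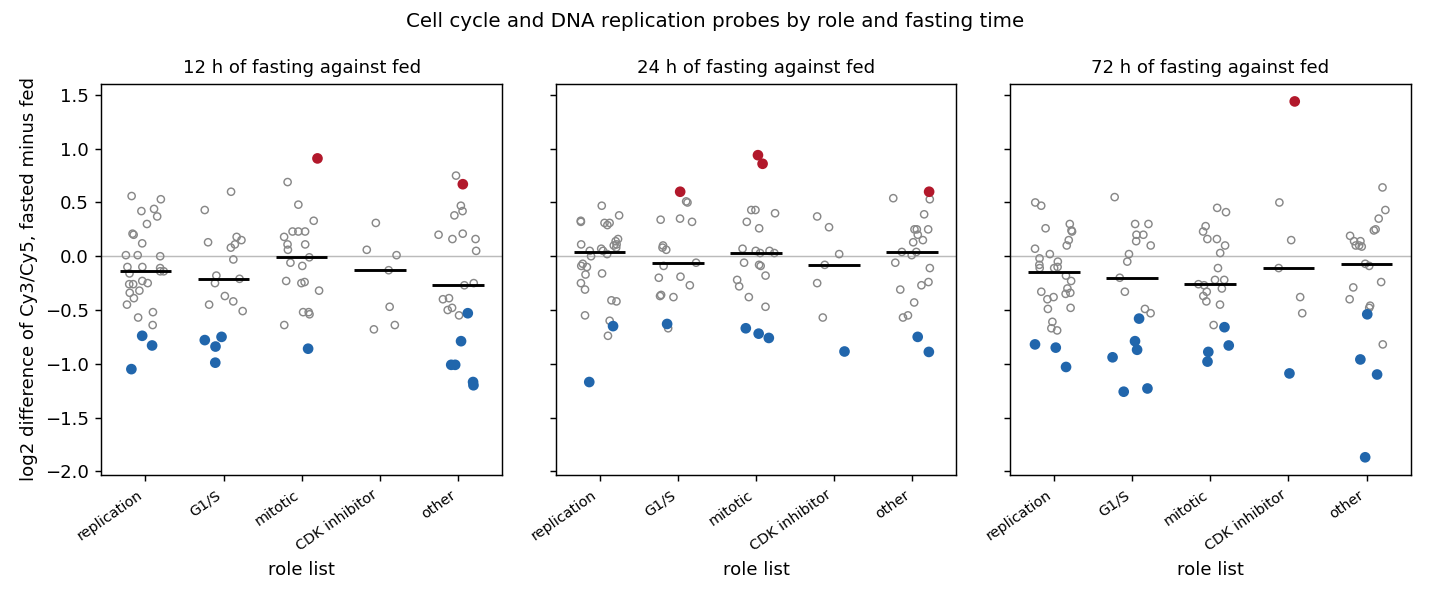
Log2 difference of Cy3/Cy5 between fasted and fed pools for each of the 104 member probes (vertical axis), by list (horizontal axis) and by fasting time (panels). Filled points were called by limma at an adjusted p under 0.05 (blue lower, red higher), open points were not, and bars are list medians. At 72 h the blue points number 18 and the single red point is Cdkn1a.

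Seen array by array, the list medians separated 72 h from fed most clearly for mitosis and replication. The median log2 ratio of the replication probes was -0.02, -0.09 and -0.13 on the fed arrays and -0.27, -0.31 and -0.22 on the 72 h arrays. That of the G1/S probes was -0.08, -0.18 and 0.05 on fed and -0.4, -0.31 and -0.2 on 72 h arrays, and that of the mitotic probes was -0.03, -0.13 and -0.02 on fed and -0.31, -0.4 and -0.24 on 72 h arrays. In all 3 lists the 72 h arrays lay below the fed arrays with no overlap. At 24 h the medians of the 3 lists overlapped those of fed arrays. At 12 h, replication ranged from -0.29 to -0.13, G1/S from -0.4 to -0.18 and mitosis from -0.22 to -0.01, touching or overlapping the fed range. The median over all probes stayed between -0.06 and 0.03 on the 12 arrays.

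**Figure D2:**
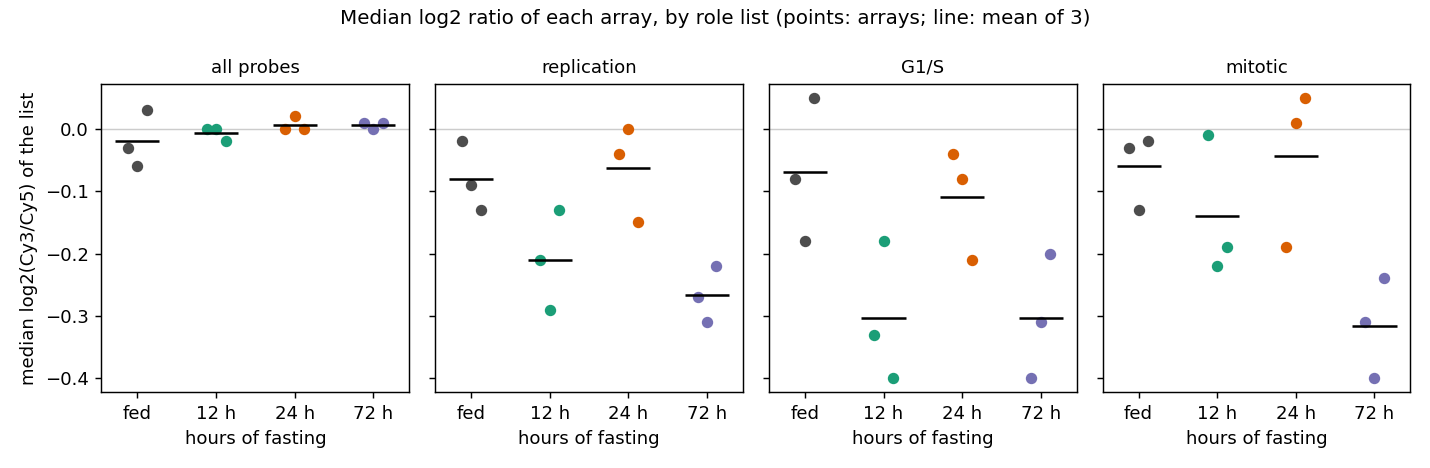
Median log2 ratio (vertical axis) of all probes and of the replication, G1/S and mitotic probes on each array, by hours of fasting (horizontal axis). Points are arrays and lines are means of 3 arrays; the 72 h points lie below the fed points in each of the 3 lists and not over all probes.

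The promoters of these genes carry known sequence elements of cell cycle control, and 3 of them are shown as examples from genes that fell at 72 h. RefSeq promoters (GRCm38.p6, 250 bases before to 50 after the start) were matched to 63 member genes, with 75 promoters in all. An E2F site, searched on both strands as TTTCCCGC, TTTCGCGC, TTTGCCGC or TTTGGCGC, stood in 13 of the 75 (17.3%), against 2.26% of 32851 promoters. By list it stood in 6 of 14 G1/S promoters (42.9%), 6 of 27 replication promoters (22.2%) and 1 of 14 mitotic promoters (7.14%). The cell-cycle homology region, a short element of genes active in G2 and mitosis searched as TTTGAA on both strands, stood in 10 of 14 mitotic promoters (71.4%), 4 of 27 replication promoters (14.8%) and 20 of all 75 (26.7%), against 17.9% of all promoters. Promoters of one gene were counted apart: the 14 G1/S promoters belong to 10 genes and the 14 mitotic ones to 13. Overlapping promoters of Tfdp1 share one E2F site, and those of Bub3 share one homology region. Neither motif contains the other. The following 250 bases before the start are written 5′ to 3′ on the gene's strand with both motifs in capitals, for Rbl1 (chr2:157204535-157204784, minus strand), Ccnb2 (chr9:70421555-70421804, minus strand) and Cdc2a, now named Cdk1 (chr10:69352913-69353162, minus strand).
Rbl1: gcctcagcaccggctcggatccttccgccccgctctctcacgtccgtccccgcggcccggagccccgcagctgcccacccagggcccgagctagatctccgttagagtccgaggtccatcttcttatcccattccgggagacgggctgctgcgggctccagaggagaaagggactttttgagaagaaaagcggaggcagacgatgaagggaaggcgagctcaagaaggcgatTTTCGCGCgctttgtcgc
Ccnb2: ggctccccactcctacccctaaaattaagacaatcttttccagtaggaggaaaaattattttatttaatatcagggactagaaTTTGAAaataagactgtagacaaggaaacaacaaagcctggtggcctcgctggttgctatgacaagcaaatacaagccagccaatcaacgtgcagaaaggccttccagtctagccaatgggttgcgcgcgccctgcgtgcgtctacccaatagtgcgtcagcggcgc
Cdc2a: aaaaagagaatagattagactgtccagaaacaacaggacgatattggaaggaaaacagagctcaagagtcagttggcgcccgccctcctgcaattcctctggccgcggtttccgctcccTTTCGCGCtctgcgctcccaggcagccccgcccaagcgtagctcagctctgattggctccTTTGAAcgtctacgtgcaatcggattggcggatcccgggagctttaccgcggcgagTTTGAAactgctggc
The Rbl1 promoter held an E2F site near its start, that of Ccnb2 a homology region well upstream and another just past its start, and that of Cdc2a both elements. A match describes the letters and does not show that a factor binds there.

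Among the G1/S genes, 6 were downregulated at 72 h and 0 were upregulated. The 6 were 31.6% of the list, against 10.6% of all probes called and 5.8% called lower. Ccnd1, which encodes cyclin D1 and couples growth signals to the cell cycle, had log2 ratios of -0.31, -0.18 and 0.51 in the fed pools, -0.4, -0.34 and -0.35 at 12 h, -0.52, -0.15 and -0.45 at 24 h, then -1.36, -1.12 and -1.18 at 72 h. The 72 h pools stood apart from the 9 others, which overlapped in part. Ccnd1 was 2.34-fold lower at 72 h than in fed gut (log2 difference -1.23 ± 0.2 SE, adjusted p = 0.0017), lower than at 24 h (-0.85, adjusted p = 0.017), and not called at 12 h (-0.37) or 24 h (-0.38). Its dimmer probe showed -0.33 ± 0.23 at 72 h (adjusted p = 0.4).

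Cdk4, the kinase partner of the D cyclins, was lower at 24 h and 72 h. Its brighter probe read -0.08, -0.36 and -0.19 in fed pools, -0.39, -0.46 and -0.54 at 12 h, -0.99, -0.85 and -0.67 at 24 h, then -1.22, -1.09 and -1.13 at 72 h. No pool of 24 h or 72 h overlapped the fed pools, and the 12 h pools lay just under them. The decrease was 1.54-fold at 24 h (-0.63 ± 0.15, adjusted p = 0.019) and 1.91-fold at 72 h (-0.94 ± 0.15, adjusted p = 0.0015). The dimmer Cdk4 probe went the other way at 72 h without a call (0.3 ± 0.19, adjusted p = 0.34), so the array gave no single answer for this gene.

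Tfdp1, the dimerisation partner of the E2F factors, read 0.04, 0.2 and 0.2 in fed pools, -0.69, -0.48 and -0.75 at 12 h, -0.58, -0.35 and -0.62 at 24 h, then -1.7, -0.81 and -0.82 at 72 h. All 9 fasted pools lay below the fed pools, with 72 h pool 1 the lowest. It was 1.72-fold lower at 12 h (-0.78 ± 0.21, adjusted p = 0.033) and 2.39-fold below fed gut at 72 h (-1.26 ± 0.21, adjusted p = 0.0021), and missed the threshold at 24 h (-0.67, adjusted p = 0.062). Without 72 h pool 1 the 72 h difference was -0.96, and at 12 h Cy3 alone differed by -0.15.

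Rbl1, which encodes the Rb relative p107, dipped at 12 h and again at 72 h. Fed pools read 0, -0.47 and 0.04, 12 h pools -0.88, -1.18 and -1.36, 24 h pools -0.36, -0.21 and -0.43, and 72 h pools -1.01, -0.89 and -0.92. The 24 h pools fell within the fed range, the others below it. The decrease was 1.99-fold at 12 h (-0.99 ± 0.18, adjusted p = 0.006) and 1.73-fold at 72 h (-0.79 ± 0.18, adjusted p = 0.01), with -0.19 at 24 h (adjusted p = 0.52). Skp2, the ubiquitin ligase subunit that removes p27, read -0.11, -0.24 and 0.11 in fed pools, -0.82, -0.57 and -0.18 at 12 h, -0.04, -0.02 and 0.02 at 24 h, then -0.94, -1.04 and -0.87 at 72 h. Its call was at 72 h (1.83-fold lower, -0.87 ± 0.17, adjusted p = 0.0056), and on the fed arrays 2 of 3 spots were well above background. Cdk2, the partner of cyclin E, was 1.5-fold lower at 72 h (-0.58 ± 0.17, adjusted p = 0.039).

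Other Rb and E2F genes changed at single times. The brighter Rb1 probe was lower at 12 h (-0.84 ± 0.21, adjusted p = 0.025, with -0.34 in Cy3 alone) and had no call at 72 h (-0.49, adjusted p = 0.16). The dimmer one, not well above background in fed gut, read -0.21 at 12 h. E2f5, a repressor E2F, was lower at 12 h (-0.75 ± 0.21, adjusted p = 0.036), with -0.04 in Cy3 alone and the call lost on omission of any of 6 pools. E2f3, an activator E2F, was higher at 24 h (0.6 ± 0.17, adjusted p = 0.037), and 1 of 3 fed arrays measured it well above background. The Cy3 difference of E2f3 was -0.03 there. The other G1 cyclins had no call at any time. At 72 h the 2 Ccnd2 probes read 0.3 and -0.2, Ccnd3 read 0.2 and Ccne1 read 0.2, and G1/S probes without a call ranged from -0.53 (E2f5) to 0.55 (Cdc25a).

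The calls of Ccnd1 and Cdk4 at 72 h held under each of 23 alternative treatments of the data. That of Rbl1 at 72 h was lost without fed pool 1, fed pool 3 or 72 h pool 1 (adjusted p up to 0.057) and that of Cdk2 without any of 6 pools (up to 0.19), while those of Tfdp1 and Skp2 held in each omission.

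**Figure D3:**
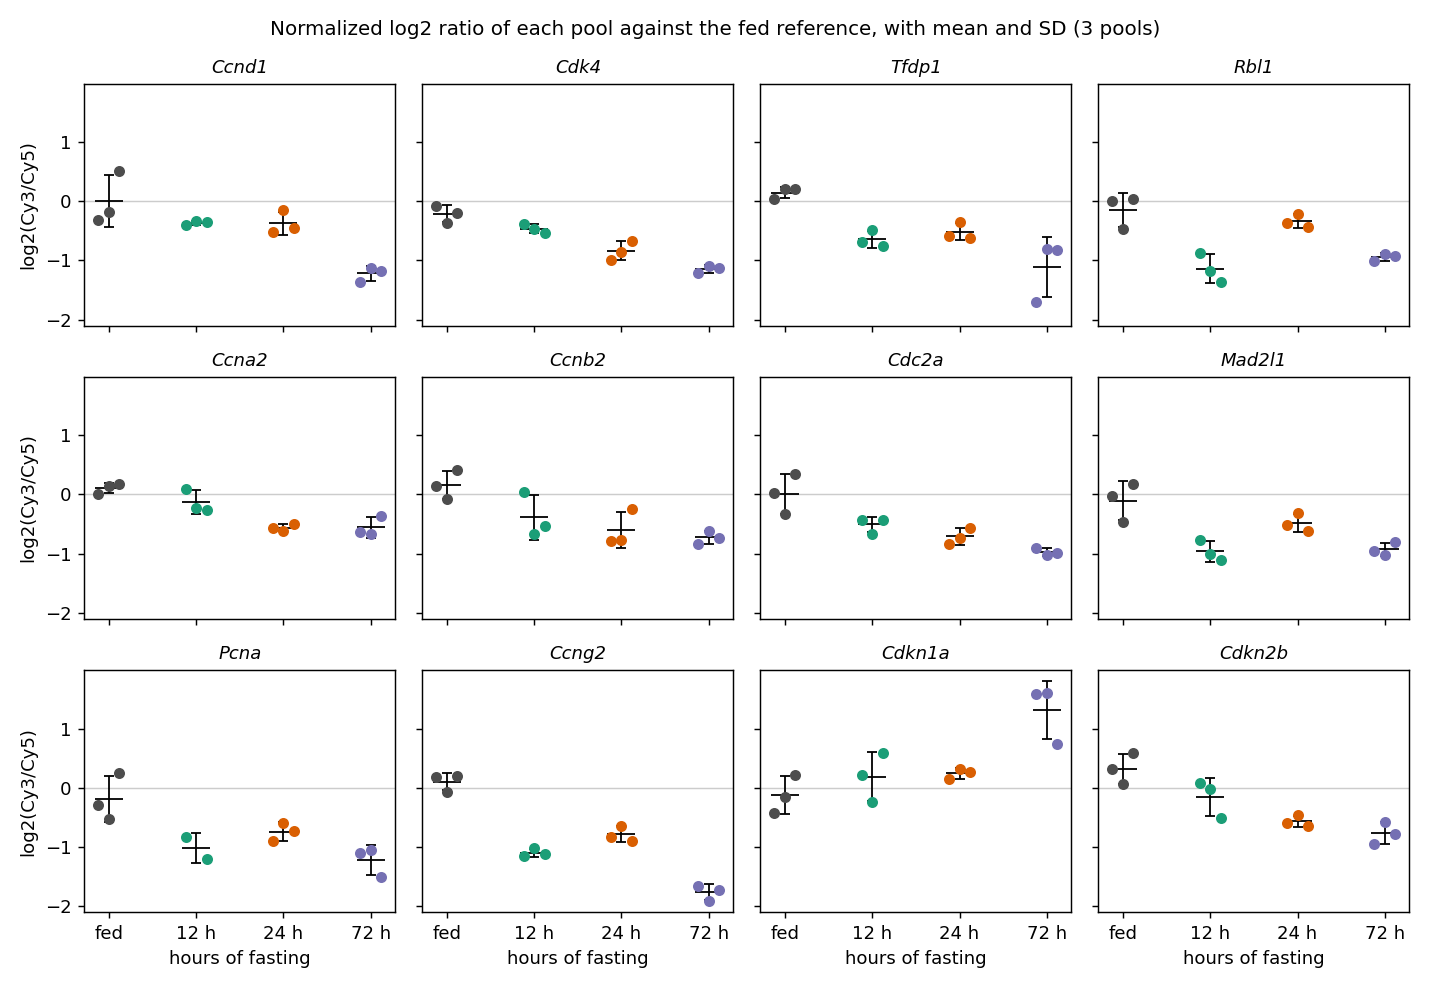
Normalised log2 ratio over the fed reference (vertical axis) of each pool for 12 genes, by hours of fasting (horizontal axis). Points are pools and bars are means with SD of 3 pools (2 for Pcna at 12 h); for genes with several probes the called probe is drawn. At 72 h, 11 of the 12 genes lie below the fed pools and Cdkn1a lies above them. All 12 are genes with a call at 72 h, so this separation follows from the choice. The uncalled probes of Ccnd1, Cdk4 and Ccna2 are not drawn, and that of Cdk4 went the other way at 72 h.

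Among the mitotic genes, 4 were downregulated at 72 h, 3 at 24 h and 1 at 12 h, and 1 and 2 were upregulated at 12 h and 24 h. In either direction, 8.7% of the list was called at 12 h (10.9% of all probes), 21.7% after 24 h (10.1%) and 17.4% after 72 h (10.6%). Cdc2a, the gene of CDK1 that drives entry into mitosis, read 0.02, -0.33 and 0.34 in fed pools, -0.43, -0.66 and -0.43 at 12 h, -0.83, -0.74 and -0.56 at 24 h, then -0.9, -1.03 and -0.99 at 72 h. The fasted pools lay below the fed pools at each time. The difference was -0.52 at 12 h (adjusted p = 0.073), -0.72 ± 0.18 at 24 h (1.65-fold lower, adjusted p = 0.022) and -0.98 ± 0.18 at 72 h (1.97-fold lower, adjusted p = 0.003). The 72 h call held under all 23 alternatives.

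Ccnb2, cyclin B2 and a partner of CDK1, read 0.14, -0.07 and 0.41 in fed pools, 0.04, -0.67 and -0.53 at 12 h, -0.78, -0.77 and -0.25 at 24 h, then -0.84, -0.61 and -0.73 at 72 h. Pools of 24 h and 72 h lay below the fed pools, and 12 h pool 1 lay among them. Ccnb2 was 1.69-fold lower at 24 h (-0.76 ± 0.21, adjusted p = 0.037) and 1.85-fold below fed gut at 72 h (-0.89 ± 0.21, adjusted p = 0.015). Its Cy3 channel alone differed by -0.19 at 24 h. Ccna2, cyclin A2 of S phase and mitosis, had its call on the dimmer of 2 probes. This probe read 0.01, 0.14 and 0.17 in fed pools, 0.1, -0.22 and -0.27 at 12 h, -0.56, -0.62 and -0.5 at 24 h, then -0.64, -0.67 and -0.36 at 72 h. It was 1.59-fold lower at 24 h (-0.67 ± 0.16, adjusted p = 0.018) and 1.58-fold below fed gut at 72 h (-0.66 ± 0.16, adjusted p = 0.014). The brighter probe gave 0.05 and -0.37 ± 0.18 (adjusted p = 0.23 at 72 h).

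Mad2l1, the spindle checkpoint gene of Mad2, was lower at 12 h and 72 h. It read -0.02, -0.46 and 0.17 in fed pools, -0.77, -1 and -1.11 at 12 h, -0.52, -0.32 and -0.62 at 24 h, then -0.96, -1.02 and -0.81 at 72 h. The pools of 12 h and 72 h lay below the fed pools, and those of 24 h overlapped them. It was 1.81-fold lower at 12 h (-0.86 ± 0.18, adjusted p = 0.012) and 1.78-fold below fed gut at 72 h (-0.83 ± 0.18, adjusted p = 0.0093). Cy3 alone differed by -0.26 at 12 h and by -0.55 at 72 h, with no call. Of these mitotic calls, Ccnb2 at 72 h was lost without fed pool 3 or 72 h pool 1 (adjusted p up to 0.082), Ccna2 without fed pool 3, 72 h pool 1 or 72 h pool 2 (up to 0.076), and the 24 h calls of both and of Cdc2a without 4 or more pools each.

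Plk, the gene of Polo-like kinase 1 of mitotic entry and spindle assembly, had a higher ratio at 12 and 24 h. Its brighter probe read -0.95, -0.97 and -0.35 in fed pools, -0.03, -0.17 and 0.67 at 12 h, 0.28, 0.14 and 0.12 at 24 h, then -1.09, -0.94 and -1.06 at 72 h. The 12 h and 24 h pools lay above the fed pools, and the 72 h pools overlapped them. This split runs along the file formats, so fasting and format cannot be told apart in it. The fed pools themselves read below the fed reference. The difference was 0.91 at 12 h (± 0.22, adjusted p = 0.02) and 24 h (0.94 ± 0.22, adjusted p = 0.018). Both calls were lost without fed pool 1 or 2 (adjusted p up to 0.079), that of 24 h also without 24 h pool 1. Both were also lost with log ratios only centred on each array's median and with ratios tested directly against the reference. That of 12 h was lost with only the 2 time points compared. At 72 h the probe read -0.27 (adjusted p = 0.48). The dimmer probe had 0.23, 0.43 and 0.16 at the 3 times, with no call. Of the other Polo-like kinases, filed under older names and not members, Plk2 (Snk) read 0.26 at 72 h with no call, Plk3 (Cnk) was higher at 72 h (0.58 ± 0.17, adjusted p = 0.039), and 1 of 2 probes of Plk4 (Stk18) was lower at 12 h (-0.68 ± 0.17, adjusted p = 0.024) while the other read -0.05. The Plk3 call was lost on omission of any of 7 pools and that of Plk4 of any of 4.

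A pair of common markers of dividing cells gave no call at 72 h. For Mki67, the gene of the Ki-67 antigen, the brighter probe read -0.26 ± 0.18 (adjusted p = 0.39) and the dimmer, not well above background in fed gut, 0.45 ± 0.16 (adjusted p = 0.088). For Top2a, the topoisomerase that untangles chromosomes, the 3 probes read -0.3, 0.1 and 0.41. One Top2a probe was higher at 24 h (adjusted p = 0.026) with 24 h values of 1.29, 0.24 and 0.61 against fed values of -0.12, -0.11 and -0.22. It was not well above background on any fed array. Its Cy3 signal was at least 3.11-fold higher on the 24 h arrays, a bound that runs across file formats and does not hold for the ratio. Its ratio differed by 0.86 and Cy3 alone by 1.93, so the reference was higher on the 24 h arrays too. The call was lost on omission of any of 5 pools (adjusted p up to 0.097). The other Top2a probes read -0.18 and 0.32 at 24 h. The remaining mitotic probes without a call at 72 h reached from -0.64 (Bub1) upwards, and Bub1b, Bub3, Cdc20, Cdc25b and Cdc25c were among them.

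The replication list had 3 calls at 72 h, all lower, out of 32 probes (9.38%, near the 10.6% of all probes). Pcna, the sliding clamp of the replicative polymerases, read -0.29, -0.53 and 0.24 in fed pools, -0.84 and -1.2 at 12 h (12 h pool 1 had no usable spot), -0.91, -0.59 and -0.73 at 24 h, then -1.11, -1.05 and -1.51 at 72 h. Every fasted pool lay below the fed pools. Pcna was 1.77-fold lower at 12 h from 2 pools (-0.83 ± 0.24, adjusted p = 0.043), differed by -0.55 at 24 h (adjusted p = 0.12), and was 2.04-fold lower at 72 h (-1.03 ± 0.21, adjusted p = 0.0078). The 72 h call held under all 23 alternatives, and the 12 h call was lost without any of 9 pools (adjusted p up to 0.17). Pcna differed by -0.32 in Cy3 alone at 12 h.

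Pole3, a histone-fold subunit of DNA polymerase epsilon, read 0.28, 0.1 and 0.35 in fed pools, -0.28, -0.55 and 0.01 at 12 h, -0.7, -0.35 and -0.17 at 24 h, then -0.61, -0.6 and -0.58 at 72 h. No fasted pool reached the fed range. It was lower at 24 h (-0.65 ± 0.18, adjusted p = 0.035) and 1.8-fold below fed gut at 72 h (-0.85 ± 0.18, adjusted p = 0.0081), though the files of the fed arrays describe this probe differently from those of 12 h. Orc4l, of the origin recognition complex, was 1.77-fold lower at 72 h on its dimmer probe (-0.82 ± 0.19, adjusted p = 0.015, lost without 4 pools each in turn) and not called on its brighter one (-0.33, adjusted p = 0.33).

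The catalytic polymerase genes had no call at 72 h. Pola1, the catalytic subunit of polymerase alpha, read -0.49 and -0.23 on its 2 probes, Pold1 of polymerase delta 0.15, Pold2 -0.3, Pole of polymerase epsilon 0.3 and Pole2 -0.61 (adjusted p = 0.074). Pola2, the second subunit of polymerase alpha, was 2.07-fold lower at 12 h (-1.05 ± 0.26, adjusted p = 0.023) with pools of -0.63, -0.71 and -1.8 against 0, -0.26 and 0.28 in fed gut, and read -0.69 at 72 h (adjusted p = 0.11). Cdc45l, of the replicative helicase, was lower at 12 h (-0.74 ± 0.18, adjusted p = 0.021). Both 12 h calls were lost without fed pool 1 or fed pool 3. The ribonucleotide reductase genes Rrm1 and Rrm2, which supply deoxynucleotides, read -0.1 and -0.67 (adjusted p = 0.055) at 72 h. Their stress-induced relative Rrm2b had a lower ratio at 24 h (-1.17 ± 0.22, adjusted p = 0.0073), where Cy3 alone differed by 0.41 and Cy5 by 1.58, and it was not well above background on any fed array.

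The MCM helicase genes are filed as Mcmd and Mcmd2 to Mcmd7 and lie outside the naming rule, which finds Mcm3ap, a gene of another protein, among the Mcm names. At 72 h Mcm2 was higher (0.52 ± 0.16, adjusted p = 0.048), and Mcm3 to Mcm7 read -0.09, -0.2, -0.12, -0.37 and -0.32 with no call. Mcm3 was lower at 12 h (-0.52 ± 0.15, adjusted p = 0.042) and 24 h (-0.54 ± 0.15, adjusted p = 0.038). Its Cy3 channel alone differed by more (-1.42 and -1.64), but the reference in Cy5 was lower on these arrays too (-0.9 and -1.1). Each of these 3 calls on ratios was lost on leaving out any 1 of at least 8 pools. Mcm7 was 2.03-fold lower at 72 h than at 12 h (-1.02 ± 0.24, adjusted p = 0.015), where Cy3 alone differed by -0.34. The median over the 6 MCM probes at 72 h was -0.16.

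The CDK inhibitors split at 72 h, with 1 gene up, 1 down and the other 5 probes not called (28.6% called, against 10.6% of all probes). Cdkn1a, the gene of p21, read -0.42, -0.16 and 0.22 in fed pools, 0.22, -0.25 and 0.58 at 12 h, 0.14, 0.32 and 0.27 at 24 h, then 1.59, 1.6 and 0.74 at 72 h. The 72 h pools lay above the 9 others, which overlapped. It was 2.7-fold higher at 72 h than in fed gut (1.44 ± 0.26, adjusted p = 0.0029), with 0.31 at 12 h (adjusted p = 0.45) and 0.37 at 24 h (adjusted p = 0.38). Cdkn2b, the gene of p15, which blocks CDK4 and CDK6, read 0.31, 0.06 and 0.58 in fed pools, 0.08, -0.03 and -0.52 at 12 h, -0.6, -0.46 and -0.64 at 24 h, then -0.95, -0.58 and -0.78 at 72 h. Pools of 24 h and 72 h lay below the fed pools. It was 1.84-fold lower at 24 h (-0.88 ± 0.19, adjusted p = 0.013) and 2.12-fold below fed gut at 72 h (-1.09 ± 0.19, adjusted p = 0.0025). Cdkn1b, the gene of p27, read 0.5 at 72 h (adjusted p = 0.19), and Cdkn1c, Cdkn2c and Cdkn2d had no call. At 12 h limma called 0 of the 7 probes (3 at an unadjusted p under 0.05), against 10.9% of all probes.

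The cyclins outside the G1/S and mitotic lists gave the lowest value of the set. Ccng2, an atypical cyclin linked to leaving the cycle, had pools of 0.18, -0.07 and 0.19 in fed gut and of -1.66, -1.92 and -1.73 at 72 h, with 12 h and 24 h pools between -1.15 and -0.64. It was lower at 72 h than at 24 h (-0.98, adjusted p = 0.0017) and than at 12 h (-0.67, adjusted p = 0.012). Ccng1, its relative and a target of p53, read 0.25, 0.11 and 0.56 in fed pools, -0.03, -0.35 and -0.14 at 12 h, -0.53, -0.5 and -0.3 at 24 h, then -0.79, -1.11 and -0.49 at 72 h on the brighter probe. All fasted pools lay below the fed pools. Ccng1 was lower at 24 h (-0.75 ± 0.18, adjusted p = 0.023) and 2.14-fold below fed gut at 72 h (-1.1 ± 0.18, adjusted p = 0.002), while its dimmer probe read -0.09. Cdkn1a, another known target of p53, was higher on the same 72 h arrays.

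Cyclin H and Cdk7 form the kinase that activates other CDKs. The brighter Ccnh probe was 1.95-fold lower at 72 h (-0.96 ± 0.27, adjusted p = 0.032) and lower at 12 h (-1.01 ± 0.27, adjusted p = 0.03), although Cy3 alone differed by 0.1 at 12 h, and the dimmer probe, which the fed files give to another gene, read -0.4 and 0.05. Both Ccnh calls were lost without any of the 3 fed pools. Cdk7 was lower at 12 h (-1.17 ± 0.33, adjusted p = 0.037), where Cy3 alone differed by -0.1 and the call was lost on omission of any of 8 pools. The 2 probes of Ccnc, cyclin C of the Mediator complex, disagreed at 12 h, one being higher (0.67 ± 0.18, adjusted p = 0.029) and one lower (-0.53 ± 0.15, adjusted p = 0.041). In Cy3 alone these probes differed by 0.16 and -0.02. The second was lower at 72 h (-0.54 ± 0.15, adjusted p = 0.035). Omission of any of 5 pools lost the higher Ccnc call, of any of 9 the lower one at 12 h, and of any of 5 that at 72 h. Cdc2l5, now Cdk13, and 1 probe of Cdk5rap2, a centrosome gene, were lower at 12 h (-0.79 ± 0.21 and -1.01 ± 0.3, adjusted p = 0.031 and 0.045). Cy3 alone differed by -0.35 and -1.52, and the calls were lost on omission of any of 3 and any of 8 pools. One probe of Ccnl, a cyclin of splicing, was higher at 24 h (0.6 ± 0.16, adjusted p = 0.032). Cy3 alone differed by 0.33 for this probe, and omission of any of 6 pools lost the call.

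The 2 channels were also fitted apart, since a ratio can move through its reference. Of the 18 lower members at 72 h, the Cy3 (sample) part of the difference was the larger in 17, with medians of -0.74 in Cy3 and 0.18 in Cy5, and Cy3 alone was called lower in 9. Of the 14 lower members at 12 h, the Cy3 part was the larger in 3, with medians of -0.29 in Cy3 and 0.53 in Cy5, and Cy3 alone was called in 3. Of the 9 at 24 h, the Cy3 part was the larger in 7 (medians -0.59 and 0.12) and called in 5. Rbl1 at 12 h, for example, had -0.25 in Cy3 and 0.75 in Cy5. The part of the file format in the 12 h calls was not tested.

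**Figure D4:**
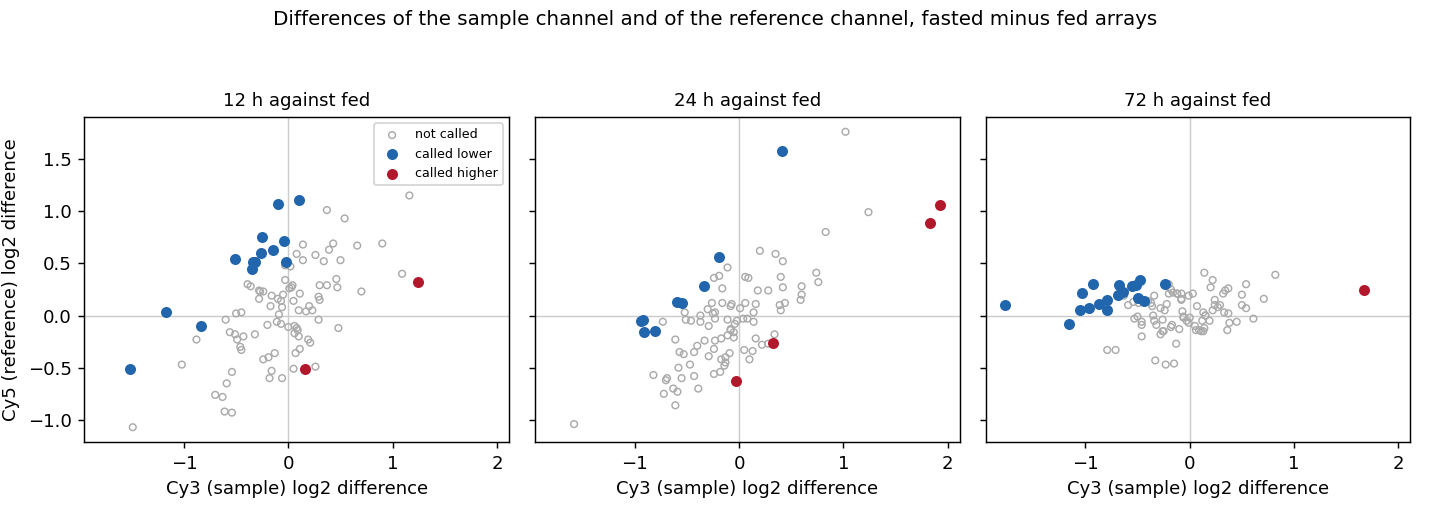
Log2 difference between fasted and fed arrays in the sample channel (Cy3, horizontal axis) and in the common reference channel (Cy5, vertical axis) for each member probe, one panel per fasting time. Blue and red points are members called lower and higher by the ratio. At 72 h the points spread along the Cy3 axis, while at 12 h and 24 h they spread along both, and most blue points of 12 h lie at raised Cy5.

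Over the 4 time points together, the moderated F-test called 33 members (31.7%, against 24.9% of all probes): 8 of 32 replication, 8 of 19 G1/S, 7 of 23 mitotic, 2 of 7 CDK inhibitor and 8 of 23 other probes. Between fasting times, 24 h differed from 12 h at 6 members, 1 lower and 5 higher (5.77%, against 2.92% of all probes, 1.69% lower and 1.23% higher). Those higher at 24 h were Rbl1, Cdc45l, Pole2, Cdc2l5 and Cdc37l, and Rrm2b had a lower ratio (0.3 in Cy3 and 1.37 in Cy5). The Cy5 part of the difference was the larger in 4 of the 6, and Cy3 alone was called the same way in 1. From 24 to 72 h, 12 members were lower and 3 higher (14.4%, against 10.6% of all probes, 4.73% lower and 5.87% higher), with Ccnd1, Skp2, Plk and Ccng2 among the lower and Cdkn1a among the higher. From 12 to 72 h, 6 were lower and 4 higher (9.62%, against 10.8% of all probes, 4.92% lower and 5.84% higher). The count of 6 between 12 and 24 h was 0 without 24 h pool 3 (29 at an unadjusted p under 0.05), and those of 15 and 10 were 4 and 2 without 72 h pool 1.

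Probes of one gene often disagreed, which bounds what single calls can carry. Of 25 member genes with several probes, 7 had a called probe at 72 h and in 0 of these was every probe called (limma). In 10 of the 25, probes lay on both sides of 0 at 72 h. Besides the genes above, Bub3, Ccnd2, Orc3l, Rb1 and Cdk5rap2 had such probes, with none called at 72 h. The gene names stem from the 12 h files, and the fed files give another name or an accession for 32 of the 104 probes.

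Other cell cycle genes that the rule does not name, a list of 57 probes of 44 genes, had 7 lower and 6 higher at 72 h (22.8%, against 10.6% of all probes), with a median of -0.16. The lower ones included Slbp (2.35-fold, -1.23 ± 0.25, adjusted p = 0.0059), which binds histone mRNA, Tk1 (1.95-fold, adjusted p = 0.036) of nucleotide supply, the licensing inhibitor Gmnn (1.88-fold, adjusted p = 0.0053) and the cytokinesis gene Ect2 (1.78-fold, adjusted p = 0.015). The higher ones included the checkpoint kinase Atm (6.66-fold, 2.74 ± 0.53, adjusted p = 0.0055), the fork protection gene Timeless (2.22-fold, adjusted p = 0.0017) and 1 of 3 probes of the primase gene Prim2 (1.76-fold, adjusted p = 0.017). At 12 h the list had 2 lower and 2 higher (7.02%, against 10.9% of all probes), and at 24 h 0 lower and 2 higher (3.51%, against 10.1%).

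Markers of the cell types of the gut wall were read on the same arrays. The enterocyte markers Apoa1, Apoa4, Anpep and Cdx2 were well above background on all 12 arrays. Of 9 probes of crypt stem and progenitor markers (Cd44, Ephb2, Ephb3, Myb, Myc and Tcf4, the last a name in use for more than one gene), limma called 0 at 72 h (0 at an unadjusted p under 0.05), against 10.6% of all probes. Their array medians ran from -0.14 to -0.12 in fed and from -0.2 to -0.05 in 72 h pools. Of 4 B and plasma cell markers, 3 (Igj, Igh-6 and Ms4a1) were lower at 72 h (75%, against 5.8% of all probes). Their array medians ran from -0.04 to 0.14 in fed and from -0.94 to -0.57 in 72 h pools. Of 9 smooth muscle probes, 5, 3 and 2 were higher at 12, 24 and 72 h (55.6%, 33.3% and 22.2%, against 4.9%, 3.79% and 4.8% of all probes). Their array medians ran from -0.46 to -0.07 in fed, 0.28 to 0.91 at 12 h and, overlapping the fed range, -0.35 to -0.08 at 72 h. The goblet cell marker Agr2 was lower at 72 h (-1.45 ± 0.24, adjusted p = 0.0019). At 12 h, 1 of 4 enterocyte and 1 of 3 Paneth cell probes were higher (25% and 33.3%, against 4.9% of all probes). Of the enterocyte medians, fed pool 3 (-0.78) and 12 h pool 3 (2.1) stood apart from the other 10 arrays (0.01 to 0.53). Of the Paneth cell medians the same pools stood apart (-2.03 and 2.71, the others -0.19 to 1.09). Without these pools in turn, the 12 h count of 16 members was 3 and 10. The T cell markers had 0 calls of 3 (limma, 1 at an unadjusted p under 0.05 at each time), against 10.9%, 10.1% and 10.6% of all probes at 12, 24 and 72 h. The pancreas marker Cpa1 had no call. The part of these cell types in the cell cycle values was not tested.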

How the data were processed

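RNA of 12 pools (3 for each of 4 feeding states) was hybridised by the authors against a common fed reference on two-colour Agilent arrays. The deposited files hold, per the file headers, raw median intensity of spot and local background in Cy3 and Cy5 for 21446 spots, with flags of 0 or 1 as other columns. Outlier spots were set missing, and 1075 control spots and 91 retired spots were left out. Intensities were background-corrected (normexp, offset 50), the 24 channels quantile-normalised, spots averaged by probe, and log2(Cy3/Cy5) of 20280 probes fitted with limma 3.58.1 in R 4.3.3, a mean per time point and no covariates. The 6 contrasts and a moderated F-test over the 3 contrasts with fed were adjusted over all probes (Benjamini-Hochberg), and adjusted p under 0.05 was a call. This stands in for the study's own analysis of variance. Dyes were not swapped.

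Members and lists were chosen with earlier results of these data known. Named with values were the genes the study's text names, up to 5 called members per list and time with the widest difference, the MCM, Polo-like kinase and polymerase genes, genes whose probes differ in direction or call, and up to 8 called genes of the further list, of which 1 is not reported here. Symbols were matched by gene number for 101 of 104 members. The array of fed pool 3 names another set of fed mice for its reference than the protocol does. The table of values deposited by the authors, a log10 ratio whose decimal points had moved in part of its cells (1822 scaled back, 89 left out), served as an alternative. The other alternatives were no background correction, loess, median centring, Cy3 alone, a filter on dim probes, outlier spots kept, the replicate number as a block, the 2 time points alone, ratios tested directly against the reference, a rule of unadjusted p under 0.01 with at least 1.4-fold, and each array left out. A scan date block was not run. On simulated data for 72 h against fed (200 changed of 20280 probes), 73% of changes of log2 size 1 and 100% of size 2 were recovered, with 7.49% false calls. The number of pools limits precision. Promoters were read with Python 3.11.15 and pandas 2.3.3 and figures drawn with matplotlib 3.10.9.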

Additional observations from a re-analysis of the deposited data

Results flagged for a closer look

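Several members differed between fasting times by a test of the difference itself, although their differences from the fed pools were fitted against the same pools. All values here are log2 differences with limma's adjusted p. From 12 to 24 h, Rbl1 (0.81, adjusted p = 0.025), Cdc2l5 (0.83, 0.05), Cdc37l (1.03, 0.023), Cdc45l (0.88, 0.019) and Pole2 (1.04, 0.017) were higher at 24 h. Rrm2b had a lower ratio (-1.07, 0.021), where Cy3 differed by 0.3 and Cy5 by 1.37. Replication genes Cdc45l and Pole2 are parts of the helicase and of polymerase epsilon.

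From 24 to 72 h, Cdkn1a (1.07, 0.018) and Mcm3ap (0.65, 0.042) were higher. Rrm2b had a higher ratio (0.99, 0.013), but its low 24 h ratio (-1.17 against fed) was reversed in Cy3 alone (0.41). The G1/S genes Ccnd1 (-0.85, 0.017), E2f3 (-0.65, 0.025), Rbl1 (-0.6, 0.042) and Skp2 (-0.94, 0.0053) were lower, as were the mitotic genes Bub1b (-0.49, 0.044), Plk (-1.21, 0.0048) and 1 probe of Top2a (-0.77, 0.038). Lower too were the replication genes Cdc45l (-0.63, 0.038), Orc4l (-0.64, 0.049, brighter probe) and Pole2 (-1.08, 0.0062), together with Ccng2 (-0.98, 0.0017) and Cdc37l (-1.01, 0.011).

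From 12 to 72 h, Cdkn1a (1.13, 0.013), Ccnl (0.83, 0.036, brighter probe) and Cdk5rap2 (0.65, 0.041, brighter probe) were higher. Ccnd1 (-0.86, 0.015), Plk (-1.18, 0.005), Ccng1 (-0.62, 0.045), Ccng2 (-0.67, 0.012) and Pold2 (-0.67, 0.028) were lower. Cdk4 went both ways, with its dimmer probe higher (0.72, 0.025) and its brighter probe lower (-0.68, 0.011). Comparisons of 72 h with 12 h or 24 h run across file formats, and fasting and format cannot be told apart in them. The comparison of 24 h with 12 h lies within one format, but its reference channel still differed at 2910 probes.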

How the results depend on the processing

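Of 19 members called at 72 h, 9 were called under all 23 alternatives (Ccnd1, Ccng1, Ccng2, Cdc2a, Cdk4, Cdkn1a, Cdkn2b, Pcna and Pole3) and 3 were lost with Cy3 alone and nowhere else (Mad2l1, Skp2 and Tfdp1). The 23 were not equally strict. The filter on dim probes and the rule of unadjusted p and fold each kept all 53 calls of named probes against fed. Leaving out a 12 h or 24 h array reaches a 72 h call only through the shared fit. Of 4410 alternative values of single probes, 3970 kept direction and side of the threshold, 302 lost the call, 130 gained one and 8 reversed, the 8 with Cy3 alone: Ccna2, brighter probe (12 h -0.59, 24 h -0.55), Ccng1, dimmer probe (24 h -0.59), Ccnh (12 h 0.1), E2f3 (24 h -0.03), Mcmd5 (24 h -0.45), Rrm2b (24 h 0.41) and Snk (24 h -0.94).

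Counts of called members, first as reported, were as follows. At 12 h, 16 became 10 with no background correction, 4 in the value table, 10 with the replicate block, 0 with only 2 time points (limma, 27 at an unadjusted p under 0.05) and 37 directly against the reference. At 24 h, 13 became 8 with no background correction, 22 with median centring, 23 with Cy3 alone and 23 directly. At 72 h, 19 became 10 with Cy3 alone, 29 with only 2 time points and 49 directly. From 12 to 24 h, 6 became 1 with centring, 1 in the value table, 11 with Cy3 alone, 0 with only 2 time points (23 unadjusted) and 14 by unadjusted p and fold. From 24 to 72 h, 15 became 9 with centring and 26 with only 2 time points. From 12 to 72 h, 10 became 6 with no background correction, 3 with centring, 22 with Cy3 alone and 2 with only 2 time points. Leaving out 1 array gave 3 to 34 at 12 h, 2 to 20 at 24 h, 12 to 28 at 72 h, 0 to 12, 4 to 20 and 2 to 18 between fasting times in that order, and 21 to 48 for the F-test (33). The array behind each lowest value was fed replicate 3, fed replicate 1, 72 h replicate 1, 24 h replicate 3 and, for the last 3, 72 h replicate 1, and the highest ones came without 12 h replicate 1 or 3. Between 12 and 24 h, counts of 3 and 1 came without 24 h replicates 1 and 2. Between 24 and 72 h, counts of 9, 8, 7, 5, 8 and 8 came without fed replicate 1, 24 h replicates 1, 2 and 3 and 72 h replicates 2 and 3. Between 12 and 72 h, counts of 3 and 5 came without 72 h replicates 2 and 3.

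Of the list medians, replication at 12 h (-0.14) became -0.07 with loess, -0.07 with Cy3 alone and -0.26 directly, at 24 h (0.04) -0.13 with centring, -0.09 with Cy3 and -0.06 directly, and at 72 h (-0.14) -0.38 in the value table and -0.27 directly, or -0.22 to -0.14 on leaving out 1 array. G1/S at 12 h (-0.21) became -0.33 with centring, -0.03 with Cy3 and -0.32 directly, and at 24 h (-0.06) 0.06 with no background correction and -0.23 with Cy3. Mitosis at 12 h (-0.01) became -0.13 directly, at 24 h (0.03) -0.14 with centring, -0.08 in the value table and -0.16 with Cy3, and at 72 h (-0.26) -0.38 in the value table and -0.12 with Cy3. The causes were not tested. Among all called probes, 44.9%, 37.7% and 45.3% were higher at 12, 24 and 72 h, against 48.7% at 24 h with no background correction and 31.7% at 72 h with centring.

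Same-numbered arrays did not deviate together (correlations -0.3 to 0.13, 2 of 18 pairs over 0.1, and 4 of 12 arrays matched their own number best), so the replicate numbers do not pair the samples, and the block changed the count at 12 h alone by over 1.5 times. Low signal limits 14 members in fed gut.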
